A study of Mus musculus with 8 samples.

Results

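The MYC, MAX and MXD network was described here as 10 mouse genes: Myc, Mycn and Mycl, their shared partner Max, and the antagonists Mxd1, Mxi1, Mxd3, Mxd4, Mnt and Mga. They were chosen by name, with earlier results of these data already known. All 10 were found among the 19937 genes measured, each by 1 probe set that carried no other gene symbol, so no member had a second probe set to set beside the first. The genes lie on mouse chromosomes 15 (Myc), 12 (Mycn and Max), 4 (Mycl), 6 (Mxd1), 19 (Mxi1), 13 (Mxd3), 5 (Mxd4), 11 (Mnt) and 2 (Mga). The samples were 4 c-jun knockout and 4 wild-type samples of B-lymphoid mouse cells of the labelled strain SW129/C57BL/6J, hybridised singly to Affymetrix MoGene 1.0 ST arrays. In each genotype 2 samples had titles beginning with RO and 2 had titles beginning with D or F. Among the latter, D titles belonged to the knockout and F titles to the wild type, so the letter and the genotype cannot be told apart there. The labels do not say what the title series stand for, how the c-jun allele was deleted, how old the animals were, whether the samples were separate cultures or animals, or whether the cells carried BCR-ABL, the leukemia kinase named in the title of the study. Each p-value thus reflects only how far these 8 samples scattered, part of which may be technical. The title of the study names c-JUN, BCR-ABL lymphoid leukemia and methylation at Cdk6, and methylation was not measured here.

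MYC proteins bind DNA only as dimers with MAX, at E-box sites of the sequence CACGTG, and activate genes for growth, ribosome production and division. The MXD proteins (MXD1, MXI1, MXD3, MXD4) and MNT also pair with MAX, occupy the same sites and bring in SIN3 and histone deacetylases, so that the output depends on which partner MAX holds. MGA is a very large MAX partner that works inside PRC1.6, a Polycomb complex that silences germ-line genes. In the bone marrow, dividing B-cell precursors use MYC, and in mice N-MYC can stand in for it, while MXD1 is known from cells that leave the cycle and MXD3 from cells in S phase.

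Promoter windows show which members carry the network's own binding sequence near their start. RefSeq windows on the mouse build GRCm38.p6, of 250 bases before to 50 bases after a start, were at hand for 9 of the 10 members, in 11 windows. Myc was not matched. An E-box (CACGTG, which reads the same on both strands) was present in 3 of the 11 windows, those of Max, Mnt and Mxd4, compared with 7.15% of all 32851 windows. The motif TGANTCA, with any base at N, is a loose form of a sequence that AP-1 factors such as c-JUN bind. As a pattern it also reads the same on both strands, and it was in 0 of the 11 member windows and in 7.81% of all windows. No other site of these factors was searched. The 3 windows with an E-box are shown because each holds the site of the network itself, and that of Mxd1 because it was the only member whose genotypes did not overlap as deposited. Each reads 5′ to 3′ along the gene, and capitals mark the E-box.
Max (chr12:76962199-76962498, minus strand): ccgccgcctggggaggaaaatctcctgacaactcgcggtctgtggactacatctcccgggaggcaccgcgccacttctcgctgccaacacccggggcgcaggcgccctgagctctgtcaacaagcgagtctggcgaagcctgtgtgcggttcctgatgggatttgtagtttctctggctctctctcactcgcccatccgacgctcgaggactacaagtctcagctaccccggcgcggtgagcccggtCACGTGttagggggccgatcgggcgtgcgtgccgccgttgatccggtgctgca
Mnt (chr11:74830674-74830973, plus strand): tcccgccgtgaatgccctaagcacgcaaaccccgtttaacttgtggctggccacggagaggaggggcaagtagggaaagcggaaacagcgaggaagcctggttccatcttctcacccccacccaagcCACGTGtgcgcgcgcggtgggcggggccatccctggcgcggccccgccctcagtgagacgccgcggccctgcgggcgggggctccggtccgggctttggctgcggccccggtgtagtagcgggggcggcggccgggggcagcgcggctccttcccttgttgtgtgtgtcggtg
Mxd4 (chr5:34187661-34187960, minus strand): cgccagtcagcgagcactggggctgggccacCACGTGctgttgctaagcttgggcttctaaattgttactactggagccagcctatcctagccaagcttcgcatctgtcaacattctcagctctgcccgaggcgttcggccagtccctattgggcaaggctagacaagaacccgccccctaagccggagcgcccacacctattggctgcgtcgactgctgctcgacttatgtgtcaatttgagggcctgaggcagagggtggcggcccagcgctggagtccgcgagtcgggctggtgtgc
Mxd1 (chr6:86669110-86669409, minus strand): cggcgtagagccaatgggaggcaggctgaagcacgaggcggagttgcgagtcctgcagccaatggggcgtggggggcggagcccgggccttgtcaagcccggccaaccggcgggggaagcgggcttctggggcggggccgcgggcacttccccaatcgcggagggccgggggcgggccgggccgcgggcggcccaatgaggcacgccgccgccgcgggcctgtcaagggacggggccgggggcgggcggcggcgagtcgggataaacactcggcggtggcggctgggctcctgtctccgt
The E-box of Max covered bases 248 to 253 of its window, across the annotated start, while that of Mnt began 123 bases and that of Mxd4 219 bases before the start. These matches describe letters in the windows and not binding, which was not measured.

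The targeted gene was checked first. Jun had log2 signals of 6.99, 6.46, 7.02 and 6.97 in knockout samples 1 to 4 and of 8.82, 8.84, 10.55 and 8.77 in wild-type samples 1 to 4, so every knockout sample lay below every wild-type sample. A 2-sided exact permutation test over arrays gave p = 0.0286, the smallest that 70 assignments allow. In the limma fit over all genes that is used below, Jun had a difference of -2.38 (SE 0.32) and an adjusted p of 0.106, so the targeted gene did not pass the threshold of 0.05 either. Of the B-lineage markers, 9 of 10 were measured and all 9 lay above the median gene of every array, among them Igll1 at a mean of 14.0 and Cd79a at 13.17. Markers of other cells were mostly dim. Below the median gene of every array lay 8 of 10 myeloid, 6 of 10 T and NK, 4 of 7 erythroid and megakaryocyte and 7 of 10 stromal markers. Of all these marker lists 0 members passed, and the smallest genotype p in each of the last 4 belonged to Itgam (-0.38), Cd3d (-0.34), Gata1 (-0.33) and Lepr (-0.28). In the myeloid list 3 of 10 were higher in knockout, and after quantile normalization 7 of 10 were higher with a median of 0.039. Lyz2 was higher by 0.67, from 2.14 among RO titles and -0.80 among D/F titles. Lower in knockout as deposited were 10 of 10 T and NK, 7 of 7 erythroid and megakaryocyte and 10 of 10 stromal markers. After quantile normalization these were 5 of 10, 5 of 7 and 9 of 10. Of all genes below the median of every array, 89.2% were lower as deposited and 50.95% after quantile normalization. In bulk RNA, fewer cells of a type and less RNA per cell cannot be told apart. Over all genes the median difference between knockout and wild type was -0.11 on the log2 scale. The deposited arrays shared a trimmed mean but not a median, and scaling and a difference between the samples cannot be told apart here. Genes below the median of every array (8581) had a median of -0.16, and genes above it on every array (8676) had -0.02. Differences are therefore also given after quantile normalization, where the median of all genes was -0.0041.

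Signals of the network overlapped between the genotypes, as deposited, in all members but Mxd1. Between knockout and wild type, 0 of the 10 members passed the Benjamini-Hochberg adjusted threshold of 0.05 in the limma fit over all genes, in which 0.00502% of all genes were called lower and 0% higher. Before adjustment 1 member, Mxd1, had a p under 0.05, compared with 2.25% of all genes. Of the members, 9 had a lower mean in knockout samples as deposited, compared with 14355 of all 19937 genes. The signals of 9 of the 10 members lay above the median gene of every array. Among all such genes 53.96% were lower in knockout as deposited and 51.59% after quantile normalization. Of the members, 8 of 10 were lower after quantile normalization and 4 of 10 after each array was centred on its median. The median difference of the 10 members was -0.16 as deposited, -0.13 after quantile normalization and 0.0093 after centring. By role, the knockout mean was lower as deposited for 3 of 3 MYC genes and for 5 of 6 antagonists.

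Myc had log2 signals of 12.76, 12.30, 12.72 and 13.10 in knockout samples 1 to 4 and of 13.40, 12.63, 12.96 and 12.57 in wild-type samples 1 to 4. The genotypes overlapped almost wholly, with the highest signal in wild-type sample 1 and the lowest in knockout sample 2. The mean was 12.72 ± 0.33 in knockout and 12.89 ± 0.38 in wild-type samples (SD, n = 4 each), a log2 difference of -0.17 with a 95% interval of -0.62 to 0.28 (limma adjusted p = 0.878). The interval runs from 0.649-fold to 1.22-fold. Without wild-type sample 1 the difference was 0.044. The mean signal of the Myc probe set lay at percentile 99.09 of all genes, although brightness also depends on the probes and does not rank transcripts.

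Mycn, which encodes N-MYC, had signals of 10.61, 10.80, 10.70 and 10.88 in knockout samples and of 11.07, 11.23, 10.24 and 11.30 in wild-type samples. Of the wild-type samples, 3 lay above every knockout sample, and wild-type sample 3 lay below them all. The spread was 10.75 ± 0.12 in knockout and 10.96 ± 0.49 in wild-type samples (SD, n = 4 each), and the difference of -0.21 (interval -0.68 to 0.25, limma adjusted p = 0.878) became -0.47 without wild-type sample 3 and -0.047 without wild-type sample 4. It passed in neither case, and no alternative brought Mycn below an adjusted p of 0.405. Mycl, which encodes L-MYC, was dim: its signals, from 7.12 to 7.52 in knockout and from 7.02 to 7.74 in wild-type samples, stayed between 0.22 below and 0.047 above the median gene of the same array. The difference of Mycl was -0.079 (interval -0.52 to 0.36) as deposited and 0.094 after quantile normalization, so its direction depended on the scaling. The 4 arrays with the highest Mycl signals were the 4 with the highest array medians.

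Max, the shared partner, had the smallest range of the members as deposited. Its signals were 11.02, 10.88, 10.82 and 10.85 in knockout samples and 10.94, 10.83, 11.04 and 11.05 in wild-type samples. The whole range over 8 arrays was 0.23 log2 units, and only 0.662% of all genes had a smaller one. The median range of all genes was 0.75. After quantile normalization the range of Max was 0.27 and 6.65% of genes had a smaller one, and Mycl, at 0.25, ranged less. The difference between genotypes was -0.077 (interval -0.36 to 0.20, limma adjusted p = 0.884), and it was 0.095 when arrays were centred on their medians.

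**Figure D1:**
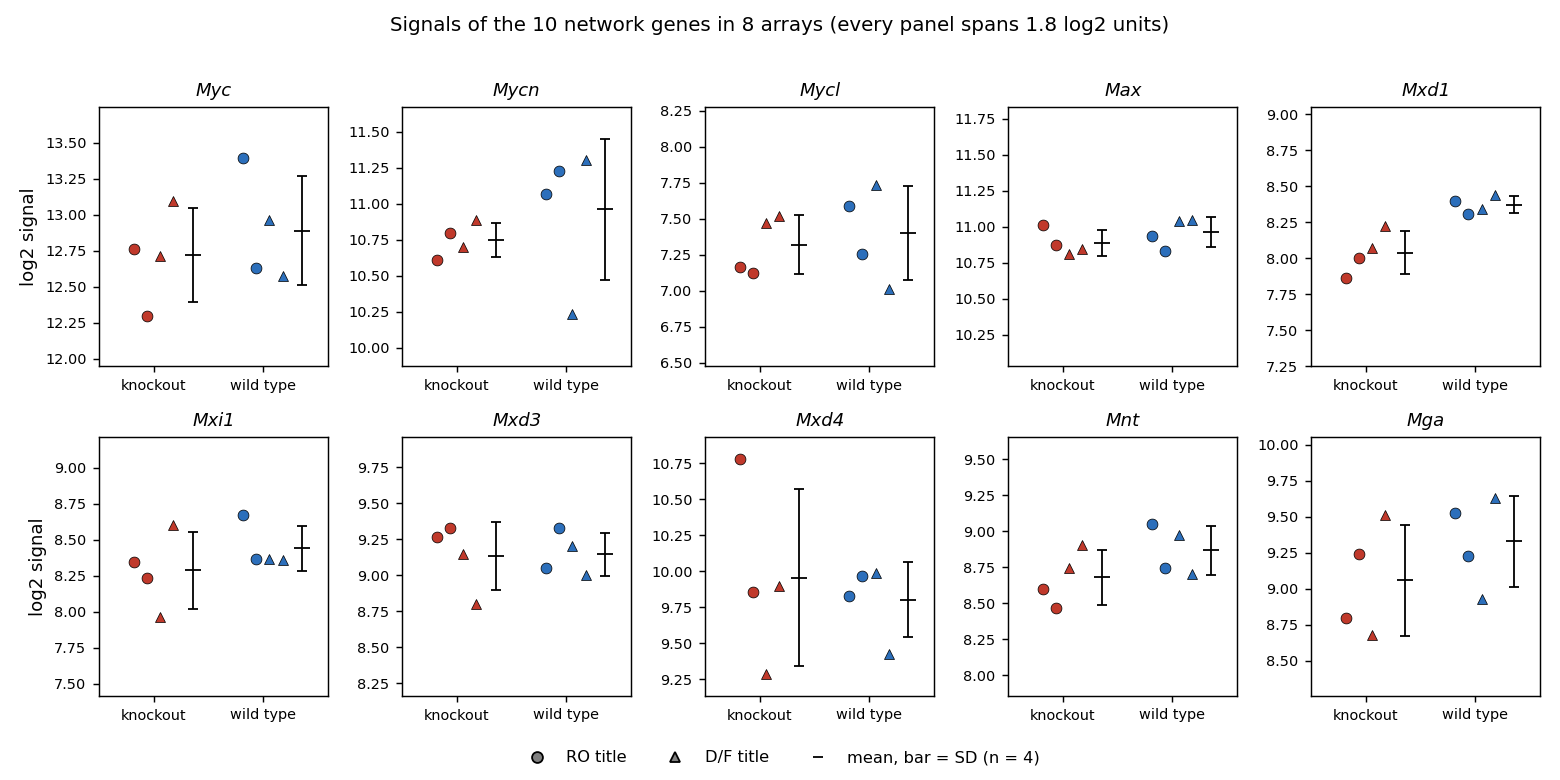
Log2 signal (vertical axes) of each network gene in 4 knockout samples and 4 wild-type samples, with circles for RO titles and triangles for D/F titles. Bars give the mean and SD of each genotype (n = 4). The genotypes overlap in 9 genes, Mxd1 is the exception with all knockout samples at or below 8.22 and all wild-type samples at or above 8.31, Max spans 0.23 units and Mxd4 spans 1.49.

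Among the antagonists, Mxd1 stood out as the one member whose genotypes did not overlap. Its signals were 7.86, 8.00, 8.07 and 8.22 in knockout samples 1 to 4 and 8.39, 8.31, 8.34 and 8.44 in wild-type samples 1 to 4. Every knockout sample was lower, although the gap between the nearest samples, 8.22 and 8.31, was small. The means were 8.04 ± 0.15 and 8.37 ± 0.06 (knockout and wild type, SD, n = 4 each), and the log2 difference was -0.33 with a 95% interval of -0.66 to -0.0021. Its limma p was 0.0488 before adjustment and 0.878 after it. Of the 10 members 1 had genotypes without overlap, compared with 1.29% of all genes, of which 1.03% had the knockout below. Part of the difference went with the array scaling. Relative to the median of all genes it was -0.22, after quantile normalization it was -0.23 (interval -0.47 to 0.022), and there the genotypes overlapped, with 8.208 in knockout sample 4 and 8.202 in wild-type sample 3. The sign was the same in all 19 alternatives, from -0.42 to -0.16, with adjusted p-values from 0.192 to 1.

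Mnt, which encodes a broadly expressed MAX-bound repressor, had signals of 8.60, 8.47, 8.75 and 8.91 in knockout samples and of 9.05, 8.74, 8.98 and 8.71 in wild-type samples. Its 4 highest arrays were again the 4 arrays of highest median. The difference was -0.19 (interval -0.54 to 0.17) as deposited, -0.16 after quantile normalization and -0.017 after centring. Mga had signals of 8.80, 9.24, 8.68 and 9.51 in knockout samples and of 9.52, 9.23, 8.93 and 9.63 in wild-type samples. High and low samples occurred in both genotypes, and the difference of -0.27 (interval -0.76 to 0.22) moved to -0.12 without knockout sample 3 and to -0.45 without knockout sample 4.

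Mxi1, also called MXD2, had signals of 8.34, 8.24, 7.96 and 8.60 in knockout samples and of 8.67, 8.36, 8.37 and 8.35 in wild-type samples. The difference was -0.15 (interval -0.55 to 0.24), and it was -0.30 without knockout sample 4 and -0.040 without knockout sample 3. Mxd3 had signals of 9.27, 9.33, 9.15 and 8.80 in knockout samples and of 9.05, 9.32, 9.20 and 9.002 in wild-type samples, and was the closest of all members between genotypes, with a difference of -0.010 (interval -0.35 to 0.33) as deposited and -0.0012 after quantile normalization. It was 0.16 after centring.

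Mxd4 was the most variable member and the only one with a higher mean in knockout samples as deposited. Its signals were 10.78, 9.86, 9.29 and 9.90 in knockout samples and 9.83, 9.97, 9.99 and 9.43 in wild-type samples. Knockout samples 1 and 3 were the highest and the lowest of all 8, and the wild-type samples lay between them. Its range of 1.49 was larger than that of 93.7% of genes. The difference of 0.15 (interval -0.37 to 0.67, limma adjusted p = 0.881) was -0.084 without knockout sample 1.

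**Figure D2:**
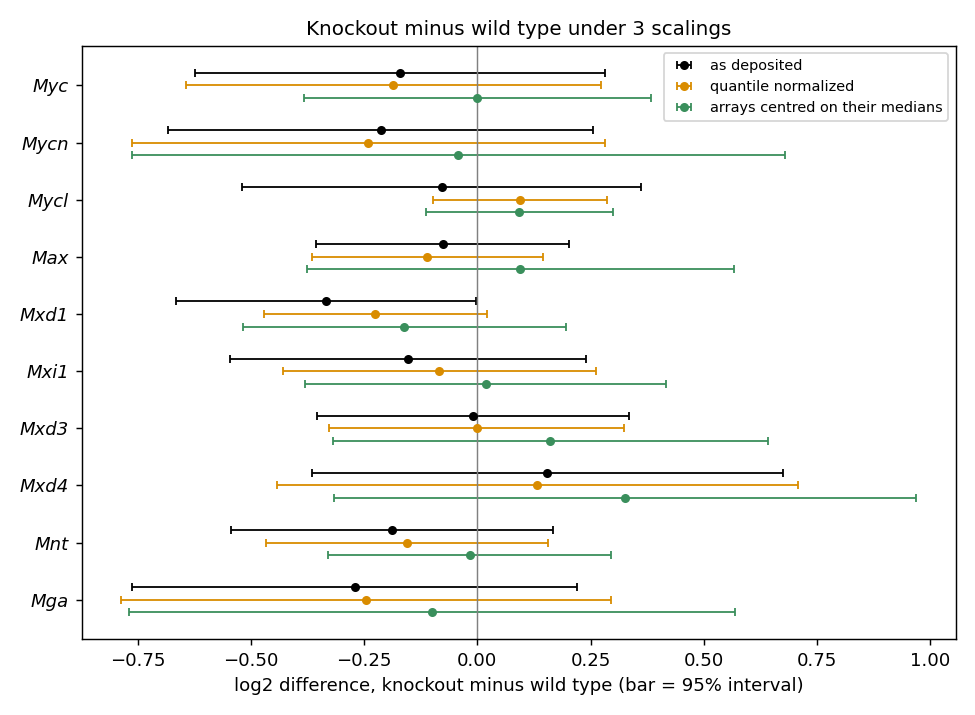
Log2 difference, knockout minus wild type, of each network gene (horizontal axis) with its 95% interval from limma, for values as deposited, after quantile normalization and after centring each array on its median. Intervals include 0 in every case but Mxd1 as deposited (-0.66 to -0.0021).

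The rule also asked for levels by title series. Between RO and D/F samples, 0 of 10 members passed after adjustment in limma (0.0201% of all genes were called higher and 0% lower in RO), 0 of 10 had a p under 0.05 before adjustment (3.12% of all genes), and 0 of 10 had groups without overlap (1.96% of all genes). As deposited, 5 members were higher and 5 lower in RO samples, compared with 36.2% of all genes higher. After quantile normalization 5 members were again higher, but the median difference of all genes had moved from -0.051 to -0.0073. Centring gave 7 members higher. Mxd4 had the widest difference, at 10.11 ± 0.45 in RO and 9.65 ± 0.34 in D/F samples (SD, n = 4 each), which was 0.46 (interval -0.061 to 0.98, limma adjusted p = 0.9999). The value was 0.73 within the knockout and 0.19 within the wild type, and 0.22 without knockout sample 1. Mxd3 followed at 9.24 ± 0.13 in RO and 9.04 ± 0.18 in D/F samples, a difference of 0.20 (interval -0.14 to 0.55). The other 8 members had differences from -0.15 (Mycl) to 0.14 (Mycn).

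Within the RO samples as deposited, the knockout had lower means for all 3 MYC genes, compared with 73.5% of all genes, and within the D/F samples for 0 of the 3, compared with 47.6%. After quantile normalization these were 2 of 3 (52.2% of all genes) and 0 of 3 (48.4%), with Mycl at 0.070 in RO. Of the antagonists, 4 of 6 were lower in the RO and 6 of 6 in the D/F knockout as deposited, and 5 of 6 in the D/F knockout after quantile normalization. The deposited genotype difference of Myc was -0.48 among RO titles and 0.14 among D/F titles, that of Mycn -0.45 and 0.020, and that of Mycl -0.28 and 0.12. Mxd4 ran the other way, at 0.42 with RO and -0.11 with D/F titles, as did Mxd3 at 0.11 and -0.13 and Max at 0.062 and -0.22. After quantile normalization Max was at -0.049 with RO titles. The differences between title series were tested as an interaction in limma, and 0 of the 10 members passed (0.0301% of all genes did). Before adjustment 0 of 10 had a p under 0.05, compared with 5.38% of all genes. The smallest p was that of Myc, 0.128 before and 0.716 after adjustment, for an interaction of -0.62 (interval -1.45 to 0.21). The median interaction of all genes was itself -0.26 as deposited and -0.019 after quantile normalization, where that of Myc was -0.54, that of Mycn -0.61 and that of Mycl -0.047. As deposited, Mxd1, Mxi1, Mnt and Mga had a lower knockout mean in both title series, as did 32.6% of all genes, and 44.1% of all genes had the same sign in both. After quantile normalization Mnt was at 0.015 in the D/F samples.

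**Figure D3:**
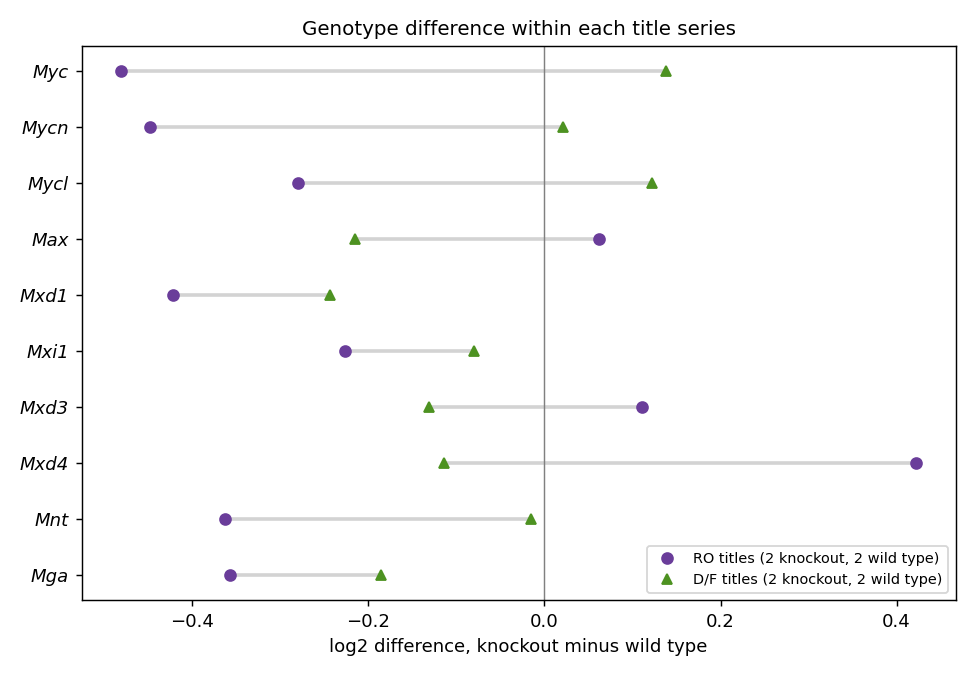
Log2 difference, knockout minus wild type, of each network gene within the RO titles (circles) and within the D/F titles (triangles), each from 2 knockout and 2 wild-type samples. Lines join the values of a gene, and Myc spans the widest distance, from -0.48 to 0.14.

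The partners through which the network acts were read from lists chosen beside the members. Of the 84 list differences picked by smallest p, 0 passed with 1 array left out, and 69 of them moved by over 1.5 times, so the values below describe these arrays and several rest on 1 sample. In the parallel MLX branch, Mlx, Mlxip and Mlxipl, known from glucose sensing, had differences of 0.061, 0.24 and -0.20, and 0 of 3 passed. Without knockout sample 2 Mlx was at -0.049. Of the SIN3 and histone deacetylase corepressors, 8 of 10 were measured, all 8 lay above the median gene of every array, and 0 passed in either direction. Sin3b, a scaffold that MXD proteins bind, was at 9.23 ± 0.07 in knockout and 9.46 ± 0.08 in wild-type samples (SD, n = 4 each), a difference of -0.24 (SE 0.14), with every knockout sample lower. It was the 1 measured corepressor of 8 without overlap, compared with 1.29% of all genes. Hdac2, a deacetylase, had 0.22 and Rbbp7, a histone-binding subunit, 0.17, but without wild-type sample 1 these were 0.0017 and -0.0051. Between title series Suds3 had 0.13, Rbbp4 0.10 and Hdac1 -0.097. Of the MYC coactivators and partners, 12 of 13 were measured, 0 passed and 5 had a higher knockout mean. Smarcb1, a chromatin remodelling subunit, had -0.21 (SE 0.14) between genotypes and 0.26 between RO and D/F, and Zbtb17, which encodes the MYC partner MIZ1, -0.19. Kat2a, an acetyltransferase, had -0.14. Between title series, Ruvbl1, an ATPase of MYC-bound complexes, had 0.17 and Ccnt1, the cyclin of the elongation kinase CDK9, -0.17.

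Among 14 of 15 measured genes for MYC protein stability, 0 passed and 7 had a higher knockout mean. Trim32, a ubiquitin ligase, had the smallest p, at 8.93 ± 0.19 in knockout and 8.42 ± 0.37 in wild-type samples (SD, n = 4 each), a difference of 0.51 (SE 0.20). Btrc, an F-box protein, had 0.22 and the phosphatase subunit Ppp2r5a 0.16. Between title series Ppp2r5a had 0.26 and was the 1 of 14 without overlap (1.96% of all genes), while the nucleolar deubiquitinase gene Usp36 had -0.33 and the kinase gene Gsk3a 0.19.

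Genes that MYC is described to activate had differences on both sides of 0. Of 30 such genes 29 were measured, 28 of them above the median gene of every array, and 0 passed. Of the 29, 16 had a higher knockout mean, and their median difference was 0.013. The median was -0.11 for all genes but -0.017 for all genes above the median of every array, of which 53.96% were lower in knockout. After quantile normalization the median of the 29 was -0.023 and 14 were higher. Npm1, a nucleolar chaperone, had 0.36 (SE 0.17), the purine synthesis gene Ppat 0.19 and the ribosome assembly gene Bop1 -0.24. Between title series 0 passed, and Prmt5, an arginine methyltransferase, and Srm, spermidine synthase, were the 2 of 29 without overlap, compared with 1.96% of all genes. For Srm the nearest RO and D/F signals were 12.765 and 12.767. Prmt5 was at 11.80 ± 0.58 in RO and 12.31 ± 0.04 in D/F samples (SD, n = 4 each). Its difference of -0.51 was -0.22 without knockout sample 2, the lowest at 10.95. Odc1, ornithine decarboxylase, had -0.23. Ccnd2, cyclin D2, had -0.47 over both genotypes, from -1.17 in the knockout and 0.22 in the wild type, with an interaction of -1.40 that did not pass (limma adjusted p = 0.715). Of 14 genes described as repressed by MYC 13 were measured, 0 passed and 6 were higher in knockout, with Ccng2, an atypical cyclin, at 0.34, Ndrg2 at -0.45 and Gas1 at -0.28. Between title series Txnip, an inhibitor of thioredoxin, had -0.49, Gadd45b, a stress gene, -0.42 and Cdkn2b, an inhibitor of cell-cycle kinases, -0.48. Of 12 proliferation genes 11 were measured, all 11 above the median gene of every array, and 0 passed. Their median difference was 0.067 as deposited and 0.025 after quantile normalization, with 7 of 11 higher in knockout under both. Pcna had 0.16, Aurkb -0.12 and Rrm2 0.19 (-0.032 without wild-type sample 1). Between title series Birc5 had 0.22, Mcm2 -0.16 and Mcm5 -0.18.

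MGA and MAX also belong to PRC1.6, and 2 of its other subunits were each low in a single sample. E2f6, the E2F factor that gives the complex part of its DNA binding, had signals of 8.98, 8.35, 6.15 and 8.58 in knockout samples 1 to 4 and of 8.58, 8.93, 9.11 and 9.03 in wild-type samples 1 to 4. Knockout sample 3 lay 2.20 log2 units below the next lowest sample and 1.32 below the median gene of its own array, so close to dim genes that no fold is given. Pcgf6, the Polycomb ring finger protein particular to this complex, had signals of 9.43, 9.45, 9.57 and 9.75 in knockout samples and of 8.66, 9.52, 6.66 and 9.88 in wild-type samples, with wild-type sample 3 lying 2.001 log2 units below the next lowest and 1.06 below the median gene of its array. The genotype differences of -0.90 (SE 0.47) for E2f6 and 0.87 (SE 0.53) for Pcgf6 did not pass, and they were -0.25 without knockout sample 3 and 0.12 without wild-type sample 3. Each gene had 1 probe set, and whether probe, sample or locus set these values was not tested. Mga and Max also had their lowest signal in knockout sample 3, at 8.68 and 10.82, but only 1.08-fold and 1.01-fold below the next lowest sample.

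The remaining subunits had narrower ranges. Of the 10 listed, 0 passed between genotypes and 0 between title series, and 6 had a higher knockout mean. Tfdp2, an E2F partner, was at 9.97 ± 0.45 in knockout and 9.54 ± 0.32 in wild-type samples (SD, n = 4 each). Its mean was higher in RO than in D/F samples by 0.48 (SE 0.19), but the title series overlapped. The lowest Tfdp2 signal, 9.325, was in wild-type sample 1, which has an RO title. Between title series Cbx3, read by 6 probe sets and uncertain for that reason, had 0.35 by the brightest. By the next brightest, RO samples ran from 11.42 to 12.16 and D/F samples from 11.49 to 12.04. Tfdp1, also an E2F partner, had -0.26 between title series by the brighter of its 2 probe sets and -0.079 by the other. The germ-line genes that this complex silences were mostly dim: 12 of 14 lay below the median gene of every array. Their median difference was -0.19 with 13 of 14 lower in knockout, compared with 89.2% of all genes of such low signal, and it was -0.0091 with 8 of 14 lower after quantile normalization. Tdrkh, a Tudor-domain gene of piRNA production, was at 5.35, 5.37, 5.93 and 5.92 in knockout samples and at 5.90, 5.89, 6.00 and 7.56 in wild-type samples. The signal of 7.56 in wild-type sample 4 was the highest, and the genotype difference of -0.70 was -0.35 without it. All RO samples lay below all D/F samples, but the nearest signals were 5.900 in wild-type sample 1 and 5.919 in knockout sample 4. Tdrkh was the 1 of 14 without overlap between title series, compared with 1.96% of all genes. Stag3, of the same list, was at 10.05 in wild-type sample 1, where the median gene was at 7.719, and between 6.245 and 7.074 in all other samples. Slc25a31 had -0.33 and Dazl -0.25 between genotypes, and Taf7l had -0.24 and Hormad1 -0.21 between title series.

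**Figure D4:**
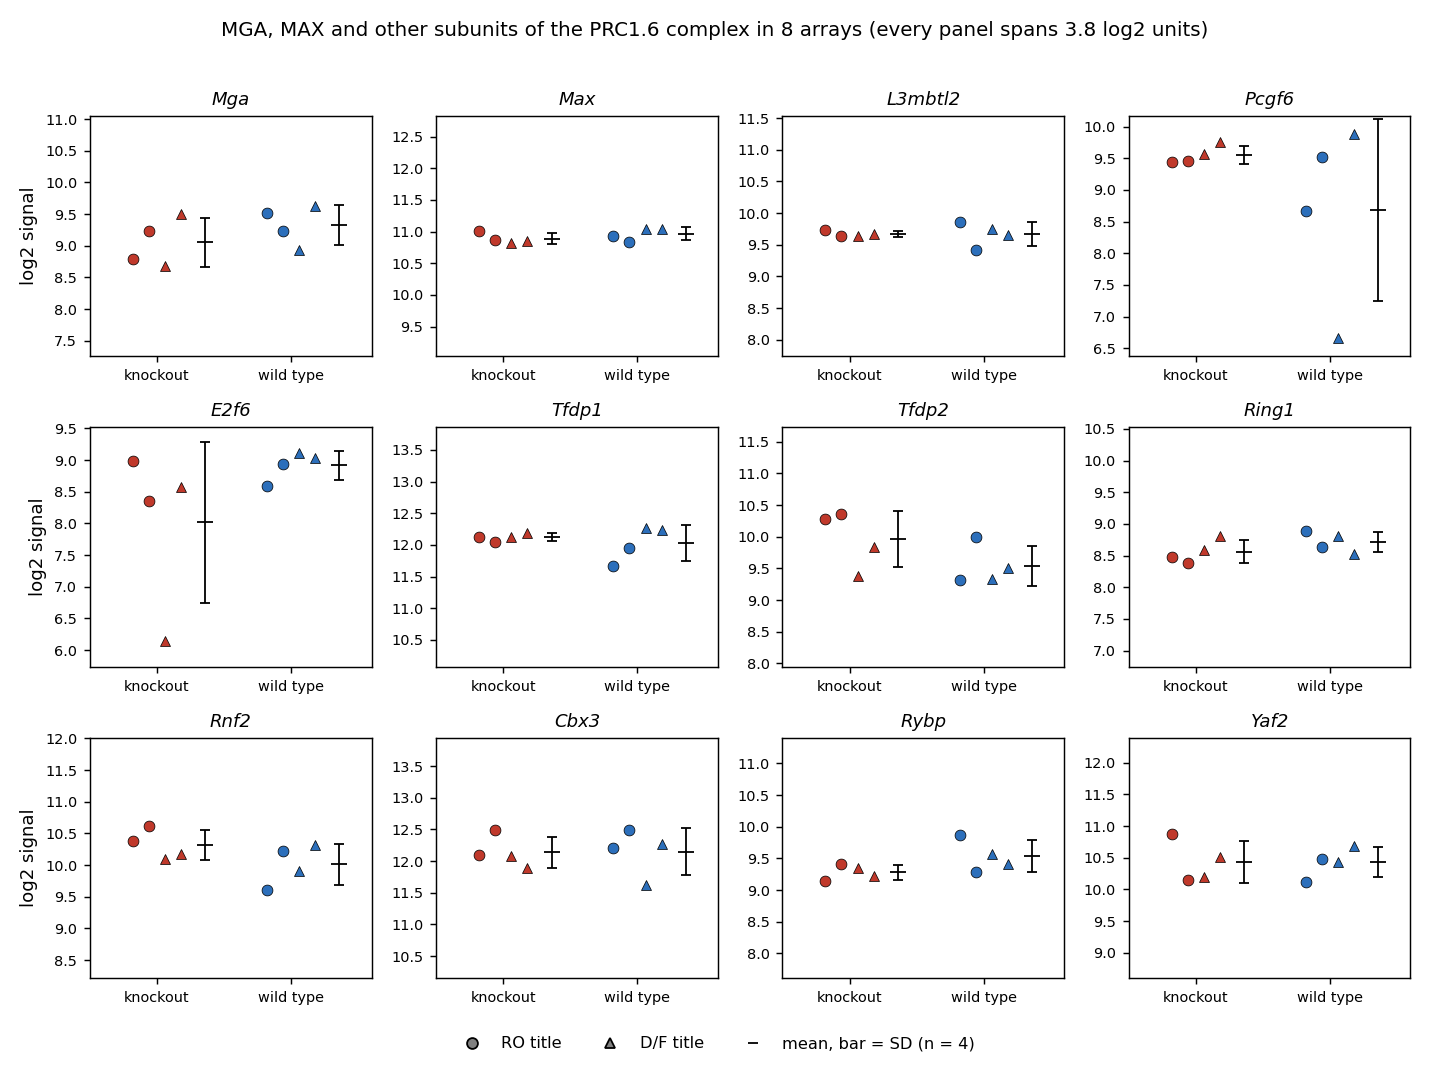
Log2 signal (vertical axes) of Mga, Max and 10 other PRC1.6 subunits in 4 knockout and 4 wild-type samples, with circles for RO and triangles for D/F titles and bars for the mean and SD of each genotype (n = 4). E2f6 is at 6.15 in knockout sample 3 and Pcgf6 at 6.66 in wild-type sample 3, while Max spans 0.23 units.

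Of the members, 3 ranged over more than 1 log2 unit across the 8 arrays, as did 20.6% of all genes, and the genes most like each were looked up among 9411 genes above the median signal, by Pearson correlation over the 8 arrays as a description. Nearest to Myc were Ppargc1b (0.970), a coactivator of mitochondrial genes, Rhbdl1 (0.969) and Prkcsh (0.969), a glucosidase subunit. Nearest to Mycn were Fam98a (0.933), Mrpl50 (0.924) and Phactr4 (0.898), and nearest to Mxd4 were Usp30 (0.947), Zfp664 (0.931) and Adal (0.931). Without knockout sample 1, the highest for Mxd4, those were 0.835, 0.777 and 0.836, and the Spearman values over all 8 arrays were 0.619, 0.857 and 0.762. With so many genes and so few arrays high values are common, and genes of one array share its scaling.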

How the data were processed

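Total RNA of 8 B-lymphoid samples was labelled and hybridised to 1 array each. The authors deposited log2 signals per probe set. Their base and scale were inferred: back on the linear scale, every array had a mean of 500.0 with 2% trimmed. MAS5, made for arrays that carry mismatch probes, is the tool credited in the submitters' processing notes, without version or settings. Array medians over 34760 probe sets ran from 6.93 to 7.42 and Pearson correlations between arrays from 0.951 to 0.979. Precision is limited by how few arrays there were. No detection calls were used.

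From these, probe sets were named with the platform annotation: 21640 had 1 symbol, 1321 several and 11799 none. Entrez identifiers of 21553 were found in a GRCm38.p6 gene table, and 0 symbols needed updating. The probe set of highest mean stood for each of 19937 genes. Values were fitted with limma 3.58.1 in R 4.3.3 (eBayes with trend) with genotype and title series as terms, 5 residual degrees of freedom (4 with the interaction), and Benjamini-Hochberg adjustment over all genes at 0.05. The fit was tested on simulated data with independent noise and no shift between arrays, so that test does not cover the scaling. Intervals of 95% are from the moderated t distribution.

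Groups came from the genotype label, and replicates were numbered in order of deposit. The members and the 15 lists (181 genes, 170 measured) were chosen with earlier results of these data known. Named genes were the members, Jun, up to 3 per list of smallest p for genotype and for title series (for marker lists only some are printed), and the 3 genes most like each member ranging over more than 1 log2 unit. Srm was named after its values were seen. Alternatives were another scaling, probe-set rule, prior, array weights, design or sample set.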

Additional observations from a re-analysis of the deposited data

Results flagged for a closer look

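Within each genotype and each title series, the highest and lowest of the 4 samples were compared with the next by Dixon's criterion. Of 40 such groups 2 passed, and chance gives about 2. Mxi1 was at 8.67 in wild-type sample 1, far from the other 3 wild-type samples, which lay between 8.355 and 8.368. Mxd4 was at 10.78 in knockout sample 1, far from the other 3 RO samples, which lay between 9.83 and 9.97.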

How the results depend on the processing

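The 20 member differences (10 between genotypes, 10 between title series) gave 370 values under alternatives, of which 0 passed 0.05 in limma, 331 kept their direction and 39 changed it. Mxd1, Mnt and Mga each kept a lower knockout mean in all 19 of their alternatives. Not among these was quantile normalization within a title series, where Mnt was at 0.015 in the D/F samples. Between genotypes, quantile normalization turned Mycl to 0.094. Centring turned Myc to 0.00017, Mycl to 0.093, Max to 0.095, Mxi1 to 0.018 and Mxd3 to 0.16. In the RO samples alone Max was at 0.062 and Mxd3 at 0.11, and in the D/F samples alone Myc was at 0.14, Mycn at 0.020, Mycl at 0.12 and Mxd4 at -0.11. Between title series, centring turned Myc to 0.0028 and Max to 0.045. In the knockout alone Max was at 0.12, Mga at -0.075 and Mycn at -0.090, and in the wild type alone Myc was at 0.24, Mycl at 0.046 and Mnt at 0.054. With 1 array left out, genotype differences ran from -0.31 to 0.044 for Myc, -0.26 to 0.028 for Mycl, -0.090 to 0.084 for Mxd3 and -0.084 to 0.33 for Mxd4. Title-series differences ran from -0.28 to 0.089 for Myc, -0.12 to 0.31 for Mycn, -0.078 to 0.026 for Max, -0.032 to 0.22 for Mxi1 and -0.15 to 0.19 for Mga. The cause was not tested.

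Over all genes limma called 1 between genotypes, 4 between title series and 6 for the interaction. The genotype count was 0 after centring (652 at an unadjusted p under 0.05), 0 among genes above the median signal (231), 2 with array weights, 32 with RO titles alone, 79 with D/F titles alone, and 0 to 2 with 1 array left out. The title-series count was 0 among genes above the median signal (457), 12 over every probe set, 12 with robust priors, 20 with array weights, 11 in the knockout and 159 in the wild type alone, and 0 to 18 with 1 array left out. The interaction count was 0 among genes above the median signal (554), 10 over every probe set, 10 with robust priors, 0 with array weights (879), and 6 to 38 with 1 array left out. No paired analysis was possible because the labels carry no replicate numbers shared between genotypes. The list genes with 1 array left out, the members within each title series under other scalings, the second probe set of Tfdp1 and the likeness to Mxd4 without 1 array were added after seeing the data. Of the 84 list differences 4 changed sign with 1 array left out, those of Mlx (both contrasts), Rbbp7 and Rrm2. Signal near the array median limits what can be said of Mycl and the germ-line genes.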

Other observations

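Over all 19937 genes, the distance between the lowest sample and the next was at least as large as that of E2f6 in 19 genes and at least as large as that of Pcgf6 in 23, E2f6 and Pcgf6 included. This measure was chosen after their values were seen.

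Among markers of other cells, Klrb1c, an NK-cell receptor gene, was at 6.33, 5.73, 6.78 and 8.93 in knockout samples 1 to 4 and at 6.08, 5.99, 10.54 and 6.02 in wild-type samples 1 to 4. The 2 high samples, knockout 4 and wild type 3, both had D/F titles, and the difference between RO and D/F samples was -2.04 (SE 0.76, limma adjusted p = 0.9999), or -1.09 without wild-type sample 3. Ncr1, in the same marker list, was at 6.07 in knockout sample 4 and 6.44 in wild-type sample 3. Over all 8 samples Ncr1 ran only from 5.94 to 6.44. The myeloid marker Lyz2 was at 10.63, 10.64, 9.24 and 7.44 in knockout samples and at 8.33, 8.66, 9.93 and 8.35 in wild-type samples. In knockout samples 1 and 2, where Lyz2 was highest, every other myeloid marker was at or below 7.047. The median genes of those arrays were at 7.288 and 7.189. The summed linear signal of the myeloid list ran from 1139 to 2321 in knockout and from 1015 to 2048 in wild-type samples, and that of the T and NK list from 3747 to 5760 and from 4279 to 6023. The erythroid and megakaryocyte list ran from 696 to 996 in knockout and from 772 to 1095 in wild-type samples, and the stromal list from 1099 to 1428 and from 1170 to 1800. Single genes carried the first pair of sums. Lyz2 held 15.2% to 69.2% of the myeloid sum in knockout and 23.4% to 47.6% in wild-type samples. Cd2 held 71.9% to 84.0% and 55.9% to 82.5% of the T and NK sum. Its signals lay between 11.395 and 12.073 in all 8 samples, and it was the 1 of 10 above the median gene of every array. The T and NK sum thus follows mainly Cd2 and does not measure T or NK cells. All 4 sums overlapped between genotypes, and their part in the member values was not tested.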
